A study of Homo sapiens with 8 samples.

Results

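IGF2, 2 IGF receptors, the receptor substrate IRS1 and 6 IGF binding proteins were followed in MCF10A cells, a non-tumorigenic human breast epithelial line, after the DNA-damaging drug doxorubicin (adriamycin, ADR). The 10 genes (IGF2, IGF1R, IGF2R, IRS1, IGFBP2, IGFBP3, IGFBP4, IGFBP5, IGFBP6 and IGFBP7) were taken by name from 20296 genes with a named probe on the array, and where a gene had several probes, the probe with the highest mean level over the 8 arrays was used. Of all named genes, 15811 were well above background on at least 1 array. Of the 10 genes, 9 were among them, and IGFBP5 was not well above background on any array.

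The study compared MCF10A p53+/+ cells with MCF10A p53-/- cells, which lack p53, to find genes that p53 regulates. For each genotype, 1 array held RNA of untreated cells (0 h) and 1 array each held RNA taken 12, 24 and 48 h after a 2 h exposure to 0.5 µg/ml doxorubicin, the dose in the sample labels (the study's methods state another). How the p53-/- line was made, and whether it is 1 clone, is not given in the sources used here. With 1 array per genotype and time there is no replicate and no estimate of the spread between cultures, and no p-value is given, so each difference below compares single arrays and a 2-fold rule of size stands in for a test.

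Insulin-like growth factor 2 is a secreted peptide that signals through the receptor tyrosine kinase IGF1R and an isoform of the insulin receptor. The active receptor phosphorylates IRS1 and related adaptors, which pass the signal to PI3K, AKT and mTOR. IGF2R binds IGF2 without that kinase activity and carries it to lysosomes for breakdown. The secreted binding proteins hold IGFs outside the cell, where proteases can release them, and several of the binding proteins also act without IGF. In breast epithelium the axis is known for its role in growth and survival, and IGF1R and IGFBP3 are often discussed with p53.

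A level here is the probe's processed signal in log2 units relative to the 75th percentile of all signals of its array, so that 0 is a bright probe and one unit is 2-fold. The 75th percentile itself lay between 661 and 1199 signal units, between 49.8% and 62.9% of probes per array were well above background, and 0 spots were saturated. Levels of different probes are not compared with each other, because probes differ in brightness. The technical SD given with a difference comes from probes printed in 10 spots on each array. It is the SD of a difference between spot means, not the SD between single spots. For it, each array's SD between spots was divided by the square root of the number of spots used. The values of the compared arrays were then combined. It measures spot-to-spot noise within an array only.

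The 0 h array labelled p53+/+ stood apart from the other p53+/+ arrays. Between it and the p53+/+ arrays at 12, 24 and 48 h, 23.9%, 30.0% and 31.3% of the 15811 genes differed at least 2-fold. Between it and the p53-/- arrays at 0, 12, 24 and 48 h, the share was 9.63%, 4.88%, 13.8% and 21.0%. The p53 target CDKN1A, which encodes the cell cycle inhibitor p21, was at -1.14 on this array, at 2.54, 2.63 and 2.70 on the treated p53+/+ arrays, and at -2.97, -0.96, -0.64 and -0.48 on the p53-/- arrays in order of time. MDM2, a p53 target that drives p53 breakdown, was at -1.66 on this array, at 1.29, 1.49 and 1.76 on the treated p53+/+ arrays, and between -2.04 and -1.33 on the p53-/- arrays. No other untreated p53+/+ array exists, so a distance due to treatment and one due to the label cannot be told apart. Because of this doubt the untreated p53+/+ sample is called the 0 h array labelled p53+/+. It is the first value where levels are given in p53+/+ order of time. For IGF2, IGFBP2, IGF1R and CCN3 the treated p53+/+ arrays are also set against p53-/- 0 h.

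Promoter sequences were at hand for 8 of the 10 genes in 10 windows from RefSeq on GRCh38.p14, each running from 250 bases before to 50 bases after an annotated start, and IGF2 and IGFBP7 had no entry. The 3 printed here belong to the genes other than IGF2 with the largest differences, IGFBP2 (higher in treated p53+/+ cells; the most GC-rich of its 3 windows), IGFBP4 and IRS1 (both lower). Capitals mark matches, on either strand, to TATAAA, the GC box GGGCGG, the cell cycle element TTTGAA (CHR), the E-box CACGTG or a p53 half-site.
IGFBP2, chr2:216633170-216633469, plus strand: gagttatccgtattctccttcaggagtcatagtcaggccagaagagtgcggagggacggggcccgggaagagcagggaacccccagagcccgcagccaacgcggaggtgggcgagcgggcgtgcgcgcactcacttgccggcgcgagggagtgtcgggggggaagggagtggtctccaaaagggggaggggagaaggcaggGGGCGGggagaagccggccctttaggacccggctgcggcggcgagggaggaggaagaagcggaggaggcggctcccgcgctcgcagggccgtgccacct
IGFBP4, chr17:40443200-40443499, plus strand: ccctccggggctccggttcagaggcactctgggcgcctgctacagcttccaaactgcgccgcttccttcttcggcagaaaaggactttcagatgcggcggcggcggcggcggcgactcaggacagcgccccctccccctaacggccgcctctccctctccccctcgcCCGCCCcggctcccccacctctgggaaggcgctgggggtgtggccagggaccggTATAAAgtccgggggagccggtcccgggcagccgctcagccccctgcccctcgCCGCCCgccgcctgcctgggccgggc
IRS1, chr2:226799771-226800070, minus strand: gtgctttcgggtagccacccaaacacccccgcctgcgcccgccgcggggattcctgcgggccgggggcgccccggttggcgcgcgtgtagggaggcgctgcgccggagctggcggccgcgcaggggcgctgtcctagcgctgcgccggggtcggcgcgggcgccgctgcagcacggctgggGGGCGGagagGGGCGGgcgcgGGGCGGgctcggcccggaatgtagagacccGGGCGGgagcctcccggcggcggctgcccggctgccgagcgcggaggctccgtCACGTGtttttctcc
The IGFBP4 window was 74.0% GC and held TATAAA 29 bases before the start, the position counted from the first base of the match. It was the one window of 10 with that match, which 11.5% of 35116 promoters of the same length hold. The IRS1 window was 79.3% GC, held 4 GC boxes and 1 E-box, and the IGFBP2 window was 70.0% GC with 1 GC box. A GC box stood in 8 of the 10 windows and in 45.0% of all promoters, and overlapping matches were counted separately. All promoters had a median of 58.7% GC, below each of the 3 printed windows, and these shares are not adjusted for GC content. A p53 half-site matched in 1 of the 10 windows, the third window of IGFBP2 (chr2:216659317-216659616, plus strand), against 6.63% of all promoters, and TTTGAA stood in that same window against 15.2%. The E-box stood in the windows of IRS1 and IGF2R, against 7.26% of all promoters. These matches describe letters in a window and are not measured binding.

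Of the 10 genes IGF2 had the widest difference. Its level was 4.05 on the 0 h array labelled p53+/+, against -2.86, -2.77 and -3.53 on the treated p53+/+ arrays (12, 24 and 48 h). The p53-/- arrays gave 4.30, 3.96, 3.72 and 3.50 at 0, 12, 24 and 48 h. The 3 treated p53+/+ arrays were far below the other 5 arrays, and the genotypes did not overlap after treatment. All 8 arrays were well above background for this probe. It is printed in 1 spot per array, so the technical SD given for IGF2 comes from other probes of like level.

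IGF2 was 113-, 89.6- and 131-fold lower in p53+/+ than in p53-/- cells at 12, 24 and 48 h (log2 differences of -6.82, -6.49 and -7.04, technical SD 0.16, 0.16 and 0.21). With normexp background correction, which adds an offset of 50 to every signal, the log2 differences were -6.15, -5.96 and -6.06, and with the mean of both IGF2 probes they were -4.99, -5.00 and -4.93. Against the 0 h array labelled p53+/+ the log2 differences of the treated p53+/+ arrays were -6.91, -6.81 and -7.58, and against p53-/- 0 h they were -7.16, -7.06 and -7.83. Within p53-/- cells the differences from 0 h were -0.34, -0.58 and -0.80, each under 2-fold. Without scaling between arrays the first of these was 0.01, so the direction at 12 h hung on the scaling. Over the mean of the 3 treated times, 2 of the 15811 genes had a more negative difference between genotypes than IGF2.

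A second IGF2 probe, dimmer and printed in 2 spots, read -2.48 on the 0 h array labelled p53+/+, with p53-/- readings of -2.25, -2.63, -2.91 and -3.18 in order of time. It was not well above background on any of the 3 treated p53+/+ arrays, which gave bounds of at least 4.43-, 3.01- and 2.72-fold lower than p53-/- at 12, 24 and 48 h. The readthrough transcript INS-IGF2 shares sequence with IGF2, and its own probe was not well above background on any array. In these bulk samples, fewer cells that make IGF2 and less IGF2 RNA per cell cannot be told apart.

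Of the marker lists of other cell types, the mesenchyme markers DCN, LUM and COL1A1 and 1 endothelial marker moved with IGF2. The mesenchyme marker PDGFRB did so only in part. It was above background on the p53-/- arrays at 0, 12 and 24 h, and not on the 0 h array labelled p53+/+ or at 48 h in p53-/- cells. Of 6 mesenchyme markers, 1 was well above background on each treated p53+/+ array, 3 on the 0 h array labelled p53+/+ and 3 to 4 on the p53-/- arrays, with COL1A2 and COL3A1 not above background on any array. Their summed linear level was 4.33 to 5.24 on the treated p53+/+ arrays, 54.4 on the 0 h array labelled p53+/+ and 52.4 to 67.3 on the p53-/- arrays. The sum came almost entirely from DCN, which encodes the matrix proteoglycan decorin and read 5.75 on the 0 h array labelled p53+/+, 2.09, 2.28 and 2.37 at the treated p53+/+ times, and 5.70 to 6.07 in p53-/- cells. Of 3 endothelial markers 1 or 2 were above background on the treated p53+/+ arrays and 2 or 3 on the others, with summed levels of 0.160 to 0.211 against 0.330 to 0.473. PECAM1 was above background on those other 5 arrays and not on the treated p53+/+ arrays. The other 2 did not follow IGF2, with CDH5 at -3.32, -3.40 and -3.03 on the treated p53+/+ arrays against -3.50, -3.48 and -3.44 in treated p53-/- cells, and VWF above background at 48 h in both genotypes.

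Epithelial markers moved the other way. CDH1 (E-cadherin) was at -3.13 on the 0 h array labelled p53+/+, at 1.42, 2.00 and 2.10 on the treated p53+/+ arrays, and at -3.55, -3.30, -2.19 and -0.94 on the p53-/- arrays in order of time. The summed level of 5 general epithelial markers was 70.8 to 101 on the treated p53+/+ arrays, 39.7 on the 0 h array labelled p53+/+ and 39.6 to 64.9 on the p53-/- arrays. Of 8 basal mammary markers, which mark the lineage MCF10A belongs to, 7 or 8 were well above background on each array, KRT5 among them, and their summed level was 387 to 437 on the treated p53+/+ arrays, 192 on the 0 h array labelled p53+/+ and 123 to 177 on the p53-/- arrays. Of 3 luminal hormone receptor markers 1 or 2 were above background per array, and of 3 leukocyte markers 2 or 3. The luminal sum was 0.690 to 0.986 on the treated p53+/+ arrays and 0.262 on the 0 h array labelled p53+/+. On the p53-/- arrays it was 0.239 to 0.478. The leukocyte sum was 1.82 to 3.30 on the treated p53+/+ arrays and 2.94 on the 0 h array labelled p53+/+. On the p53-/- arrays it was 2.68 at 0 h and 4.02 to 6.10 after treatment. The part of these markers in the differences of IGF2 and of the genes below was not tested.

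**Figure D1:**
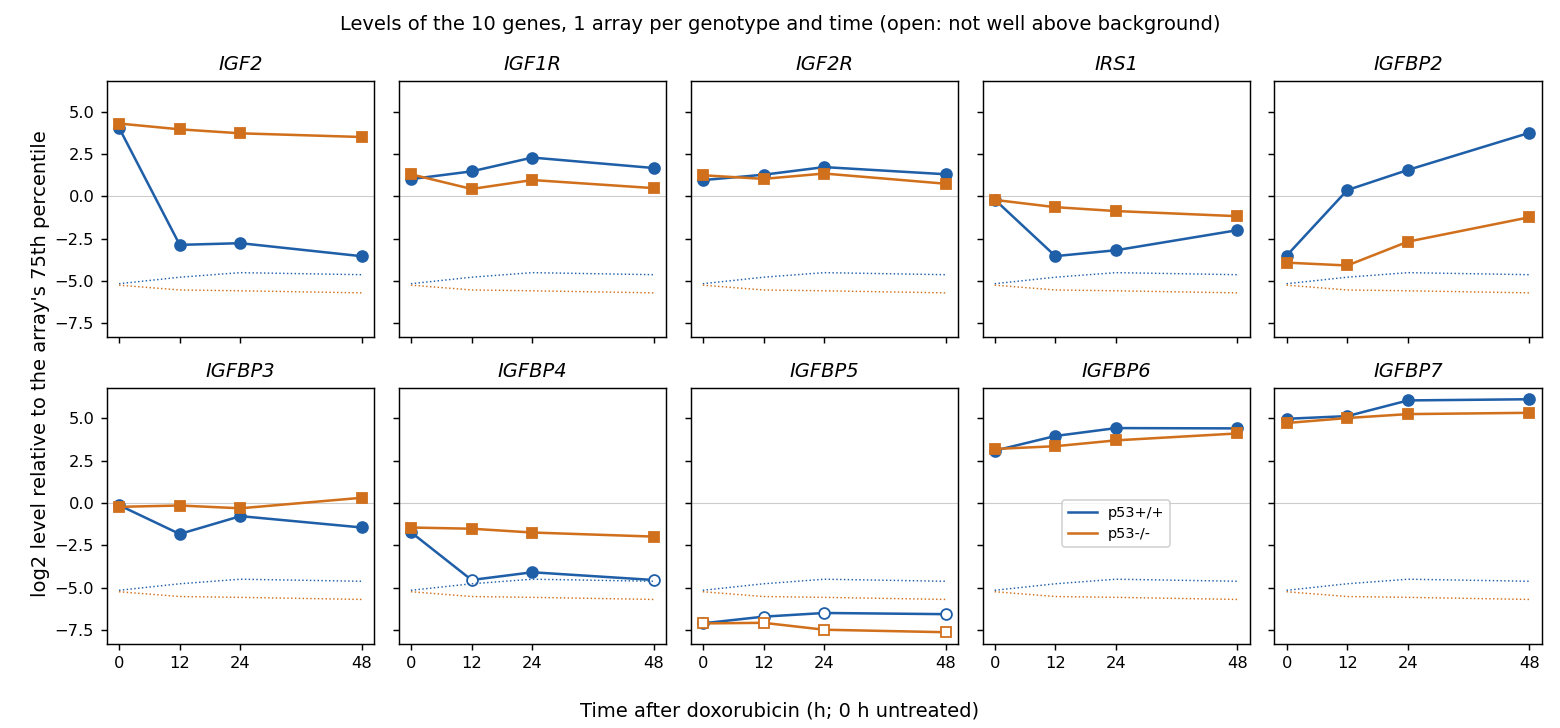
Levels of the 10 genes (y axis, log2 relative to the 75th percentile of the array) against time after doxorubicin in hours, 1 array per point; blue circles are p53+/+ and orange squares p53-/-. Open symbols are not well above background, and dotted lines are the lowest level of a probe well above background on each array. IGF2 goes from 4.05 to -2.86 between the first 2 p53+/+ points while p53-/- stays between 3.50 and 4.30, and IGFBP2 goes from -3.50 to 3.75.

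IGF1R, the signalling receptor, was higher in treated p53+/+ cells, but by little more than 2-fold. Its level was 1.02 on the 0 h array labelled p53+/+, then 1.47, 2.29 and 1.67 at 12, 24 and 48 h. Its p53-/- levels in the same order were 1.30, 0.44, 0.96 and 0.49. The 3 treated p53+/+ arrays lay above all 4 p53-/- arrays and above the 0 h array labelled p53+/+. The differences between genotypes were 1.04, 1.33 and 1.19 (2.05-, 2.51- and 2.28-fold, technical SD 0.08, 0.07 and 0.08). At 12 h the difference was under 2-fold with median scaling (0.77) and with normexp background correction (0.88), and normexp gave 0.99 at 48 h. Without scaling the differences at the 3 times were 0.59, 0.84 and 0.33, all under 2-fold.

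IGF2R, the receptor that removes IGF2, was within 2-fold in every comparison. It read 0.96, 1.28, 1.73 and 1.30 in p53+/+ order of time and 1.24, 1.03, 1.35 and 0.74 in p53-/- cells. The treated genotypes overlapped, since the p53-/- value at 24 h exceeded the p53+/+ values at 12 and 48 h. The differences between genotypes of 0.25, 0.38 and 0.56 after treatment were above the technical SD of 0.08, but each was negative without scaling, and that at 12 h also with median scaling.

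IRS1, the adaptor that links IGF1R and the insulin receptor to PI3K, was lower in treated p53+/+ cells, most so at 12 h. On the 0 h array labelled p53+/+ it read -0.19, and at 12, 24 and 48 h in p53+/+ cells -3.53, -3.18 and -2.00. The p53-/- arrays read -0.21, -0.64, -0.87 and -1.17. The treated p53+/+ arrays were below all others, and the gap narrowed at 48 h with a p53+/+ value that was higher and a p53-/- value that was lower than at 24 h. The differences between genotypes were -2.89, -2.31 and -0.83 (7.41-, 4.96- and 1.77-fold lower, technical SD 0.15, 0.15 and 0.10), so IRS1 missed the 2-fold rule at 48 h. With normexp correction they were -1.97, -1.52 and -0.51. A second IRS1 probe gave -3.32, -2.86 and -1.46, and was not well above background on the p53+/+ arrays at 12 and 24 h, for bounds of at least 6.33- and 4.07-fold lower.

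IGFBP2, a binding protein of IGF1 and IGF2, showed the opposite course to IGF2. Its probe is printed in 10 spots, and its mean level was -3.50 on the 0 h array labelled p53+/+, followed by 0.37, 1.56 and 3.75. For p53-/- cells the means were -3.91, -4.08, -2.67 and -1.23. Each treated p53+/+ array was above all 4 p53-/- arrays, and the p53-/- values at 24 and 48 h were also above that at 0 h. IGFBP2 was 21.9-, 18.8- and 31.6-fold higher in p53+/+ than in p53-/- cells at 12, 24 and 48 h (log2 differences of 4.45, 4.23 and 4.98, technical SD 0.12, 0.04 and 0.03).

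Against the 0 h array labelled p53+/+, IGFBP2 was 14.7-, 33.4- and 153-fold higher at 12, 24 and 48 h. Set against p53-/- 0 h, the log2 differences of IGFBP2 on these treated p53+/+ arrays were 4.28, 5.47 and 7.66. Among p53-/- arrays it was 1.12-fold lower at 12 h, 2.36-fold higher at 24 h and 6.41-fold higher at 48 h. Without scaling the log2 difference at 12 h was 0.18, so that direction hung on the scaling. With normexp correction the log2 differences from 0 h were 3.00, 4.13 and 6.24 for the p53+/+ arrays, and for p53-/- they were 0.61 at 24 h, under 2-fold, and 1.73 at 48 h. Between genotypes normexp gave 3.36, 3.63 and 4.63. Of the 15811 genes, 90 had a larger mean difference between genotypes after treatment. The SD between spots of an array ran from 0.04 to 0.37, with the widest spread on the dimmest array.

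**Figure D2:**
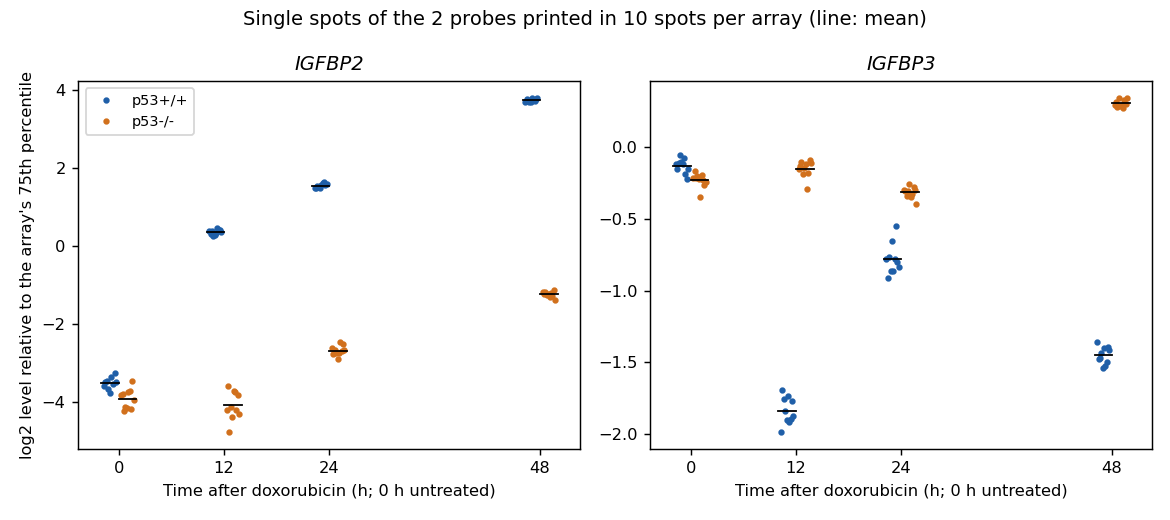
Levels of single spots (y axis, log2 relative to the 75th percentile of the array) of the IGFBP2 and IGFBP3 probes against time after doxorubicin in hours; blue is p53+/+, orange is p53-/- and black lines are means over 9 or 10 spots. Spots of one array lie close together compared with the gap between genotypes after treatment, as for IGFBP2 at 48 h with means of 3.75 and -1.23.

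IGFBP3, the main carrier of IGFs in blood and a gene known as a p53 target, was lower in treated p53+/+ cells at all 3 times and past 2-fold at 2 of them. It read -0.13, -1.84, -0.78 and -1.45 in p53+/+ order of time and -0.23, -0.15, -0.32 and 0.30 in p53-/- cells. The treated p53+/+ arrays were below all the others, with 24 h nearest to them. The differences between genotypes were -1.68, -0.46 and -1.75 (3.21-, 1.38- and 3.37-fold lower, technical SD 0.03, 0.04 and 0.02).

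IGFBP4, a binding protein that restrains IGF action until the protease PAPPA cleaves it, was lower in treated p53+/+ cells at all times. It read -1.73 on the 0 h array labelled p53+/+, while p53-/- cells gave -1.45, -1.52, -1.75 and -1.99. On the treated p53+/+ arrays it read -4.55, -4.09 and -4.55, and was not well above background at 12 and 48 h. Taken at these readings it was 8.15-fold lower at 12 h, 5.09-fold lower at 24 h and 5.91-fold lower at 48 h than in p53-/- cells. The folds at 12 and 48 h are not bounds, because both readings exceeded the lowest level well above background on their arrays (-4.77 and -4.63). With normexp correction the log2 differences were -1.61, -1.34 and -1.10, smaller than these folds give. In p53-/- cells the differences from 0 h were -0.07, -0.30 and -0.54. Without scaling those at 12 and 24 h were 0.28 and 0.08.

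IGFBP6, which prefers IGF2 to IGF1, and IGFBP7, a distant relative with low affinity for IGFs, were within 2-fold between genotypes at every time. IGFBP6 read 3.08, 3.95, 4.42 and 4.40 in p53+/+ order of time and 3.18, 3.35, 3.69 and 4.10 in p53-/- cells. IGFBP7 read 4.97, 5.12, 6.05 and 6.12 against 4.72, 5.01, 5.24 and 5.32. Both genes were above their 0 h value on each treated array of both genotypes, apart from IGFBP7 at 12 h in p53+/+ cells under median scaling or none. Both were over 2-fold above the 0 h array labelled p53+/+ at 24 and 48 h, by 1.33 and 1.31 for IGFBP6 and by 1.08 and 1.15 for IGFBP7. IGFBP7 was under 2-fold at both times with median scaling (0.96 and 0.99) and without scaling (0.77 and 0.54), and at 48 h with quantile normalization (0.98). IGFBP6 was under 2-fold at 48 h without scaling (0.70). The p53-/- differences from 0 h at 48 h were 0.92 and 0.60. IGFBP5 read between -7.63 and -6.50 without passing background, so no fold is given.

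**Figure D3:**
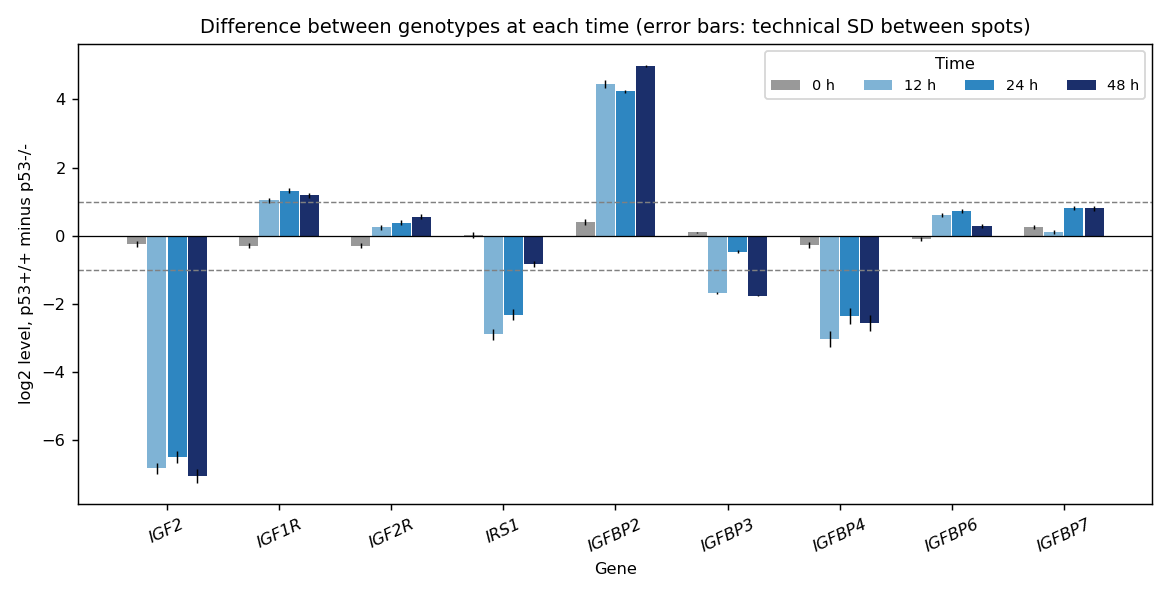
Difference between genotypes (y axis, log2 level in p53+/+ minus p53-/-) for the 9 genes above background on at least 1 array. Bars run from grey to dark blue for 0, 12, 24 and 48 h. Error bars are the technical SD of the difference between spot means, and dashed lines mark 2-fold. At 0 h all bars lie between -0.29 and 0.41, and after treatment IGF2 lies at -6.49 or below and IGFBP2 at 4.23 or above.

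Counted over the 9 genes, 2 (IGF2 and IGFBP4) were at least 2-fold lower in p53+/+ than in p53-/- cells at all 3 treated times, beside 5.92% of the 15811 genes. Another 2 (IGF1R and IGFBP2) were at least 2-fold higher, beside 6.75%. Against the 0 h array labelled p53+/+, 3 genes (IGF2, IRS1 and IGFBP4) were lower at all 3 times, beside 6.39%, and 1 (IGFBP2) was higher, beside 9.53%. In p53-/- cells 0 of the 9 were lower and 0 higher at all 3 times, beside 2.04% and 3.21%. At 0 h, 0 of the 9 were lower and 0 higher between genotypes, beside 5.38% and 4.25%, and the 9 differences lay between -0.29 and 0.41. The comparisons share arrays, and the genes were chosen with results of these data known, so the counts describe the genes.

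The 9 genes did not move as a block. The median over them of the mean difference between genotypes after treatment was 0.39, beside 0.05 over all 15811 genes. It lies within 2-fold although the single values ran from -6.78 for IGF2 to 4.56 for IGFBP2. At 12, 24 and 48 h the median was 0.11, 0.38 and 0.30, beside 0.09, -0.03 and 0.10 for all genes.

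**Figure D4:**
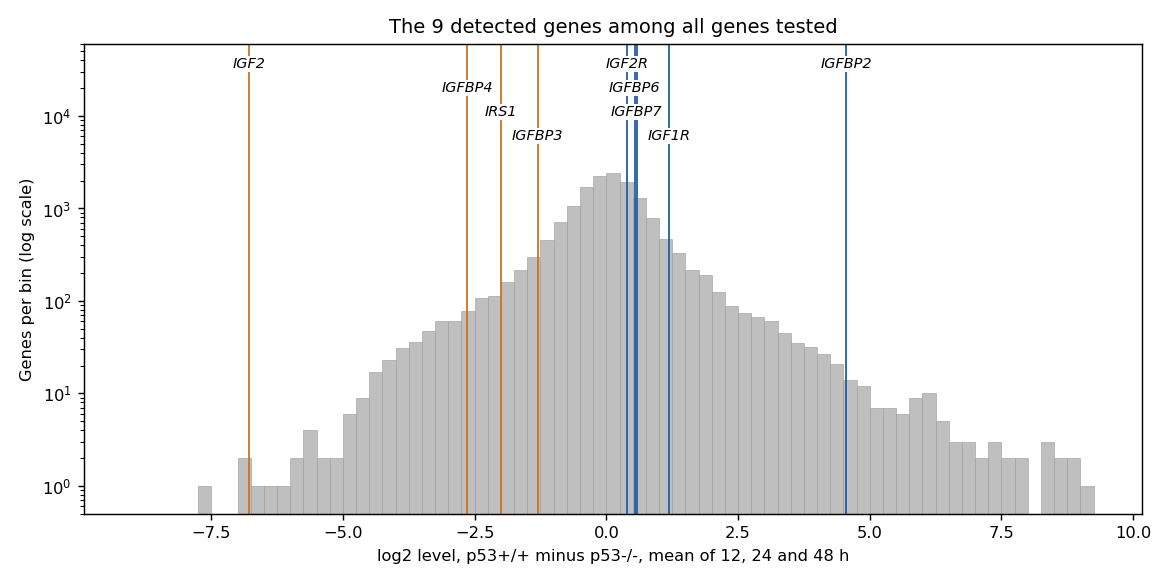
Number of genes (y axis, log scale) by difference between genotypes (x axis, log2 level in p53+/+ minus p53-/-, mean of 12, 24 and 48 h) for 15811 genes in grey; vertical lines are the 9 genes, orange where negative and blue where positive. IGF2 at -6.78 lies at the far left of the distribution and IGFBP2 at 4.56 on its right flank.

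Genes whose course over the 8 arrays was most like that of the 3 genes of widest range were found by Pearson correlation among 3123 genes that were above background on at least 4 arrays and spanned at least 2 log2 units. The arrays share the split of genotype and treatment, so high values are common and are given as a description. For IGF2 they were PRKAA2 (a catalytic subunit of AMPK; r = 0.9973), IGFBP4 (r = 0.9948) and HHEX (a homeobox factor; r = 0.9941). For IGFBP2 they were FXYD3 (a regulator of the sodium pump; r = 0.9879), GJA3 (a connexin; r = 0.9875) and CARD18 (r = 0.9870). For IRS1 they were TGFB2 (a TGF-β ligand; r = 0.9903), CAD (the enzyme that starts pyrimidine synthesis; r = 0.9880) and FOXF2 (a forkhead factor; r = 0.9831). Some of these genes read below the lowest level well above background on their low arrays. These were PRKAA2 (-6.77, -6.64 and -6.74) and HHEX (-6.70, -6.46 and -6.57) on the treated p53+/+ arrays. TGFB2 did so there at 12 and 24 h (-5.67 and -5.31), and CARD18 on both 0 h arrays and p53-/- 12 h (-6.97, -7.03 and -7.30).

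The wider axis was read from 60 listed genes of 7 groups, of which 49 were well above background on at least 1 array. Of the 49, 7 were at least 2-fold lower in p53+/+ than in p53-/- cells at all 3 treated times, 3 were higher and 39 were neither, beside 5.92% lower and 6.75% higher among all 15811 genes. Their median mean difference was 0.09, beside 0.05 over all genes. The partner ligand IGF1 was above background on 1 array of 8, so no fold is given.

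Among 9 ligands and extracellular factors, STC2 and STC1 were lower and H19 was higher. STC2, a glycoprotein that inhibits PAPPA, read -0.28 on the 0 h array labelled p53+/+, -3.12, -3.34 and -2.55 on the treated p53+/+ arrays, and between -0.97 and -0.46 on the p53-/- arrays. Its differences between genotypes were -2.33, -2.37 and -1.73. STC1, its paralog, counts among the 7 lower genes, but 0 of its treated arrays passed background, so no fold is given. H19, the imprinted noncoding RNA next to IGF2, read -2.84 on the 0 h array labelled p53+/+, -2.32, -1.11 and -0.63 on the treated p53+/+ arrays, and between -3.85 and -3.01 on the p53-/- arrays. IGF2 and H19 thus lay on opposite sides of 0 between treated genotypes, with H19 at 1.53, 2.29 and 2.38.

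Among 3 receptors, INSR and IGFLR1 were lower. INSR, the insulin receptor, differed by -2.27, -2.17 and -1.46 between genotypes at 12, 24 and 48 h, where IGF1R differed by 1.04, 1.33 and 1.19. INSR read -1.14 on the 0 h array labelled p53+/+ and -0.34 on p53-/- 0 h. IGFLR1, a receptor for IGF-like peptides outside the insulin receptor family, differed by -1.45, -3.59 and -4.54. IGFL2, a member of the IGF-like family, was at least 13.9-fold higher at 12 h, where its p53-/- signal was not well above background. It differed by 4.24 and 2.82 on the log2 scale at 24 and 48 h.

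Of 7 adaptors, SHC1, which links receptors to RAS, was higher by 1.04, 1.48 and 1.46, and the other 6, among them IRS2, were not past 2-fold at all 3 times. At 12 h the SHC1 difference was 0.77 with median scaling, and without scaling the differences were 0.59, 0.99 and 0.60, all under 2-fold. Of 22 genes of PI3K, AKT and mTOR signalling, EIF4EBP1 (a repressor of translation that mTOR inactivates) was lower, with differences of -1.28, -2.25 and -1.25, and the other 21 were neither. Of 2 measured IGF2 mRNA binding proteins, 0 were past 2-fold at all 3 times. Of 4 measured CCN proteins, matricellular factors with an IGF binding protein-like domain, CCN3 and CCN5 were lower. CCN3 differed by -2.41, -3.63 and -3.34, and CCN5 by -1.77, -1.45 and -1.49.

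**Figure D5:**
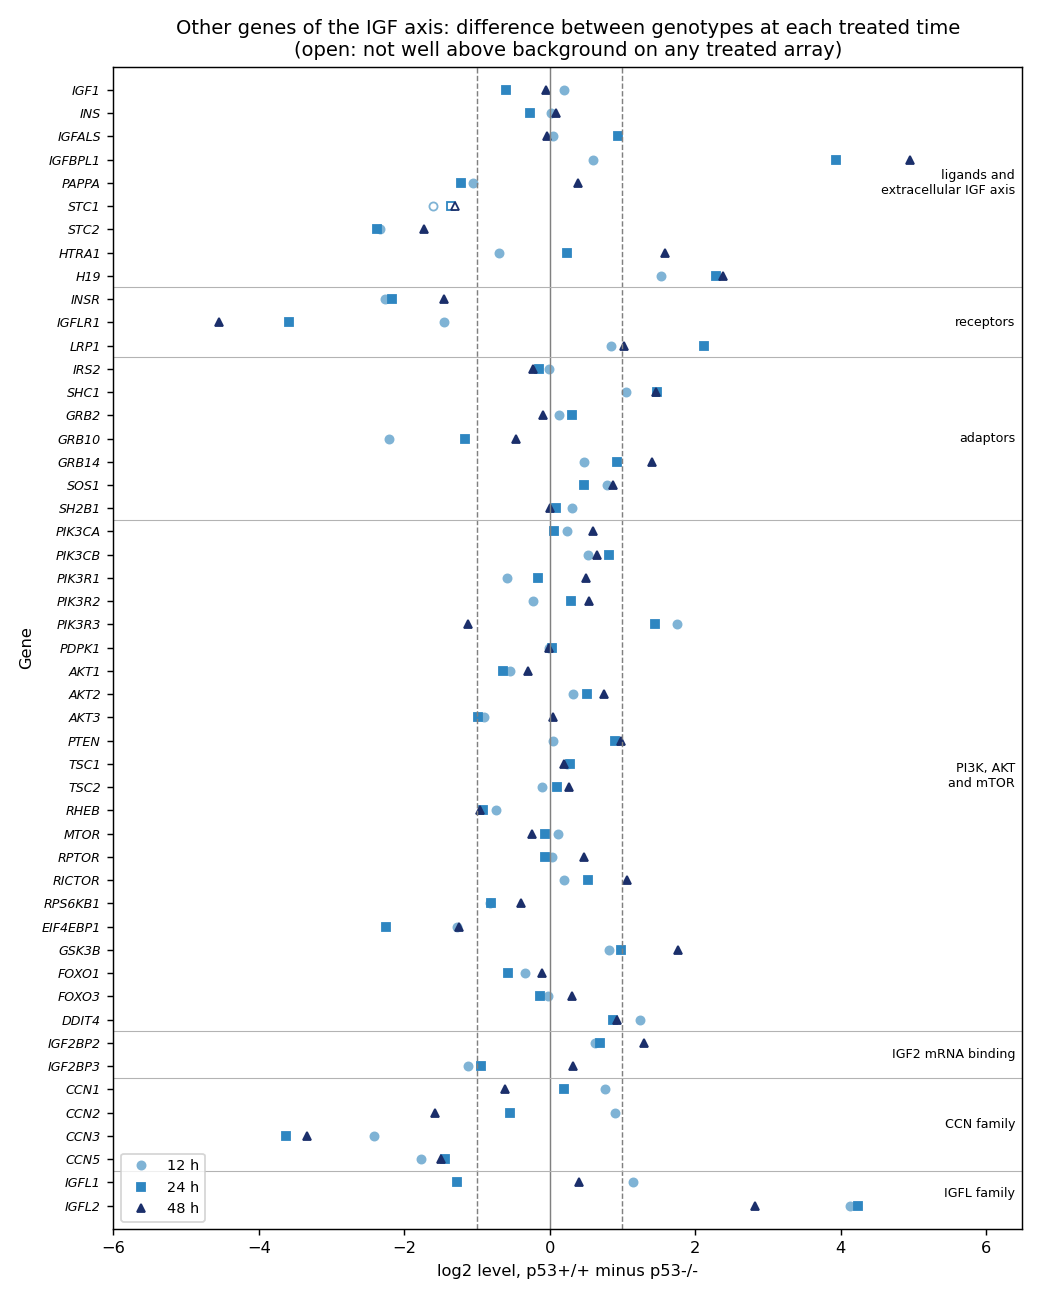
Difference between genotypes (x axis, log2 level in p53+/+ minus p53-/-) of the 49 other genes of the axis at 12 h (circles), 24 h (squares) and 48 h (triangles), grouped by role; dashed lines mark 2-fold and open symbols a gene not above background on any treated array. Most genes of PI3K, AKT and mTOR signalling lie inside the dashed lines, while STC2, INSR, IGFLR1 and CCN3 lie to the left and H19 and IGFL2 to the right at all 3 times.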

How the data were processed

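MCF10A RNA of 2 genotypes and 4 times was hybridised to 8 single-colour Agilent SurePrint G3 arrays, 1 per condition, grouped by the sample labels. The deposited files hold, for each spot, a linear intensity (the processed signal) from which scanner software (Feature Extraction 10.7.3.1, per the labels) had removed background. A deposited table for all arrays repeats it (503808 of 503808 values equal within a relative 1e-06). The design in the file headers is on hg19, and no normalization between arrays is given in the sources used here.

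Of 62976 spots, 58717 were not controls. Spots with outlier flags were left out, log2 signals were scaled to the 75th percentile of each array, and spots of a probe were averaged, giving 27227 named probes of 20296 genes (RefSeq accessions first). A gene was tested if its probe was well above background on at least 1 array. Where one side of a comparison was not, the fold is taken against the lowest level well above background on that array, as a bound. Where the probe's own level was higher, as for IGFBP4, that level was used and the fold is not a bound. Technical SDs come from 999 probes printed in 10 spots, by level (IGFBP2 and IGFBP3 from their own spots). They were divided by the square root of the number of spots used and combined over the compared arrays.

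With 1 array per condition no test was run; a gene counts where it differs at least 2-fold at all 3 treated times. The genes, lists and rules were chosen with earlier results of these data known. The text names the 10 genes, listed genes past the rule (at most 4 per list), CDKN1A and MDM2 as a check (one further check gene is not reported here), marker genes, the 3 genes most like each of the 3 of widest range, and, chosen after their values were seen, IGF1, IRS2 and INS-IGF2. Alternatives were other scalings, normexp background correction (offset 50, limma 3.58.1, R 4.3.3, on median spot signals), other probes, a signal floor, 3-fold and fewer times. Python 3.11.15, numpy 2.4.6 and pandas 2.3.3 were used. The number of arrays limits the precision.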

Additional observations from a re-analysis of the deposited data

Results flagged for a closer look

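IGF1R was above the 0 h level on each treated p53+/+ array (0.46, 1.27 and 0.65 on the log2 scale at 12, 24 and 48 h, against the 0 h array labelled p53+/+) and below it on each treated p53-/- array (-0.87, -0.34 and -0.82). The difference between these changes averaged 1.47 over the 3 times. Without scaling the p53-/- value at 24 h was 0.04, so the opposite direction is lost there. Set against p53-/- 0 h, the treated p53+/+ arrays differed by 0.17, 0.99 and 0.37.

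CCN3 was below the 0 h array labelled p53+/+ on each treated p53+/+ array (-1.69, -1.47 and -0.79) and above p53-/- 0 h on each treated p53-/- array (1.60, 3.04 and 3.43), a mean difference of -4.01. Set against p53-/- 0 h, the treated p53+/+ arrays read -0.81, -0.60 and 0.08, so the direction turns at 48 h. Neither difference between genotypes was tested, since each condition has 1 array, and both rest on the 0 h array labelled p53+/+.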

How the results depend on the processing

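IGF2, IGFBP4 and IGFBP2 kept their side of 2-fold between treated genotypes under each scaling and background alternative run. IGF2 also kept it under the probe alternatives. IGFBP2 and IGFBP4 have 1 probe each, so those could not move them, and the signal floor left every value of the 9 genes unchanged. Of the 37 values past 2-fold for the 9 genes, 30 (no scaling) to 36 (quantile normalization) stayed past it under the scaling and background alternatives, with 0 turning in sign. Genes higher in treated p53+/+ cells numbered 1 rather than 2 with median scaling, no scaling, normexp correction or a 3-fold rule, IGF1R dropping out. Requiring 2 of the 3 times gave 4 lower genes between treated genotypes (adding IRS1 and IGFBP3). Against the 0 h array labelled p53+/+ this looser rule gave 3 higher (adding IGFBP6 and IGFBP7), and in p53-/- cells 1 higher (IGFBP2). The share of all genes that pass the looser rule is not given here, so these counts only name the genes that were added. IRS1 made 3 lower genes with no scaling, other probes, or, chosen after seeing the data, 12 and 24 h alone. Listed genes that were lower numbered 11 rather than 7 without scaling. Lower genes among all 15811 also rose, from 936 to 2155, so the listed genes moved with the shift of all genes.

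Of all genes past the rule between treated genotypes, 53.3% were higher (1068 against 936 lower), but 43.3% with median scaling, 45.9% with quantile normalization and 20.0% without scaling, where the median of all genes was -0.37, -0.52 and -0.76 at 12, 24 and 48 h. Small differences of IGF2R, IGFBP6 and IGFBP7 changed sign with scaling, as did small p53-/- differences from 0 h of IGF2, IGF1R, IGFBP2, IGFBP3 and IGFBP4. No paired analysis was possible because each condition has 1 array and the labels give no replicate numbers that pair arrays. Low signal limits the second IGF2 and IRS1 probes to bounds and puts IGFBP4 near background in treated p53+/+ cells, and all 8 arrays lie on 1 slide.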
